A study of Mus musculus with 18 samples.

Results

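The genes described here are the 7 Hoxb genes from Hoxb2 to Hoxb8, found by their symbols among the 24421 genes of the count table, and 6 of them (all but Hoxb7) passed the filter for testing, as did 12808 genes in all. RNA was sequenced from sorted hematopoietic stem cells (HSCs) of Hoxb5-tri-mCherry mice, a knock-in line on a C57BL/6J background in which mCherry reports Hoxb5 and which every group shared. There were 6 groups of 3 libraries: LT-HSCs (long-term HSCs, reporter positive), ST-HSCs (short-term HSCs, reporter negative) and bulk-HSCs (the immunophenotypic HSC gate that holds both), each from young mice of 2 to 3 months and aged mice of 23 to 25 months. Whether libraries of different fractions shared animals, and whether a library pooled several animals, was not given in the sources used here, so p-values measure the spread between these samples. Because Hoxb5 itself set the LT and ST gates, its LT, ST and bulk values are a description and it was left out of every count of genes called between fractions. The other 6 genes were not used in the sort.

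Hox genes encode homeodomain transcription factors that give cells their position along the body axis in the embryo, and they lie in 4 clusters in which the order of the genes follows the order of their expression domains. Blood-forming cells use them again: Hoxb4 is known for expanding HSCs when it is forced on, Hoxb3 shares part of that role, and Hoxb8 blocks the maturation of myeloid progenitors when it is overexpressed. HOX proteins bind DNA together with PBX and MEIS cofactors, and their genes are kept on by MLL (Kmt2a) complexes and off by Polycomb.

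The 7 genes lie on chromosome 11 (mm10), all on the plus strand and within 72.1 kb from the start of Hoxb8 to the end of Hoxb2, in the order Hoxb8, Hoxb7, Hoxb6, Hoxb5, Hoxb4, Hoxb3, Hoxb2. Hox genes resemble each other in sequence, which bears on whether reads could be assigned to the right gene. No window of 127 bases, the read length, was shared in the same orientation between a member and any other annotated gene. On the opposite strand the antisense gene Hoxb3os covered 827 of 3485 such windows of Hoxb2 and 2003 of 4085 of Hoxb3, and no full window of the other 5 members was covered by a gene. Still, 3.59% of the exon bases of Hoxb5 lie under an exon of the antisense gene Hoxb5os. Hoxb3os has no row of its own in the count table and strand-specific counting was not stated, so reads of Hoxb2 and Hoxb3 cannot be told apart from reads of Hoxb3os. The RefSeq annotation also draws Hoxb3 around Hoxb4 on the same strand (chromosome 11, 96307101 to 96347930), so the split of reads between this pair depends on an annotation that was not stated.

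The libraries held 16495048 to 22973844 counts. Among 9653 well-expressed genes, whose median count was at least 200, 1 to 163 were at 0 in a young and 2 to 6 in an aged library, and young LT-HSC replicate 3 (163) and young ST-HSC replicate 3 (160) stood apart. Without both of these libraries the same 3 members were called between LT-HSCs and ST-HSCs averaged over ages, and the 3 calls described for Hoxb6 in young mice and with age were not made. Cells were checked against 9 HSC markers, of which 8 were tested: Slamf1 and Mecom were higher and Cd34, Flt3 and Kit lower in LT-HSCs than in ST-HSCs, by edgeR at adjusted p of 0.0484 or less. Ly6a, Procr and Hlf were not called, and Cd48 was too low to test. The mean of Hlf was lower in LT-HSCs at both ages (1104 against 1358 CPM in young, 904 against 1033 CPM in aged mice). That of Procr was higher at both ages, and that of Ly6a changed direction between ages. Among markers of other cells, B cell genes summed to 1.55 CPM or less in every library, neutrophil and monocyte genes to 0.490 to 19.8 CPM with Mpo listed at 0 in every library, megakaryocyte genes to 67.5 to 169 CPM, and the T cell genes Cd3e and Cd3d were at or near 0. The 5 markers of T and NK cells summed to 0.23 to 26.2 CPM in young LT-HSC and ST-HSC libraries and 23.4 to 138 CPM in aged ones, with Klrb1c higher in LT-HSCs. Stroma and endothelium markers summed to 15.4 to 46.3 CPM in LT-HSCs and 5.15 to 16.2 CPM in ST-HSCs, with Col1a1 and Cdh5 at 0 in all groups. The sex genes Xist and Ddx3y summed to 10.5 to 108 CPM in young ST-HSCs and 71.4 to 133 CPM in the other groups. In young ST-HSCs Ddx3y had 62.7 ± 47.3 CPM (SD, n = 3). The part of these levels in the Hoxb differences was not tested.

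Most member calls were between LT-HSCs and ST-HSCs. Averaged over both ages, 3 of the 5 members tested (Hoxb4, Hoxb6 and Hoxb8) were higher in LT-HSCs than in ST-HSCs, beside 0.539% of all 12808 genes tested that were called higher, by a quasi-likelihood test in edgeR whose p-values were adjusted over all genes by the Benjamini-Hochberg method. With the replicate number added to the fit as a block, Hoxb6 and Hoxb8 were called and Hoxb4 was not. The calls of Hoxb6 in young mice and with age were also not made with that block. Hoxb8 had counts in 1 of 6 ST-HSC libraries, Hoxb6 in the 3 aged ones and none of the young ones, and Hoxb4 in all 6. The median log2 fold change of the 5 members was 2.46, against 0.00 over all genes tested. The plot of CPM by library, that is counts scaled to library size with TMM factors, shows all 18 values of each gene.

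**Figure D1:**
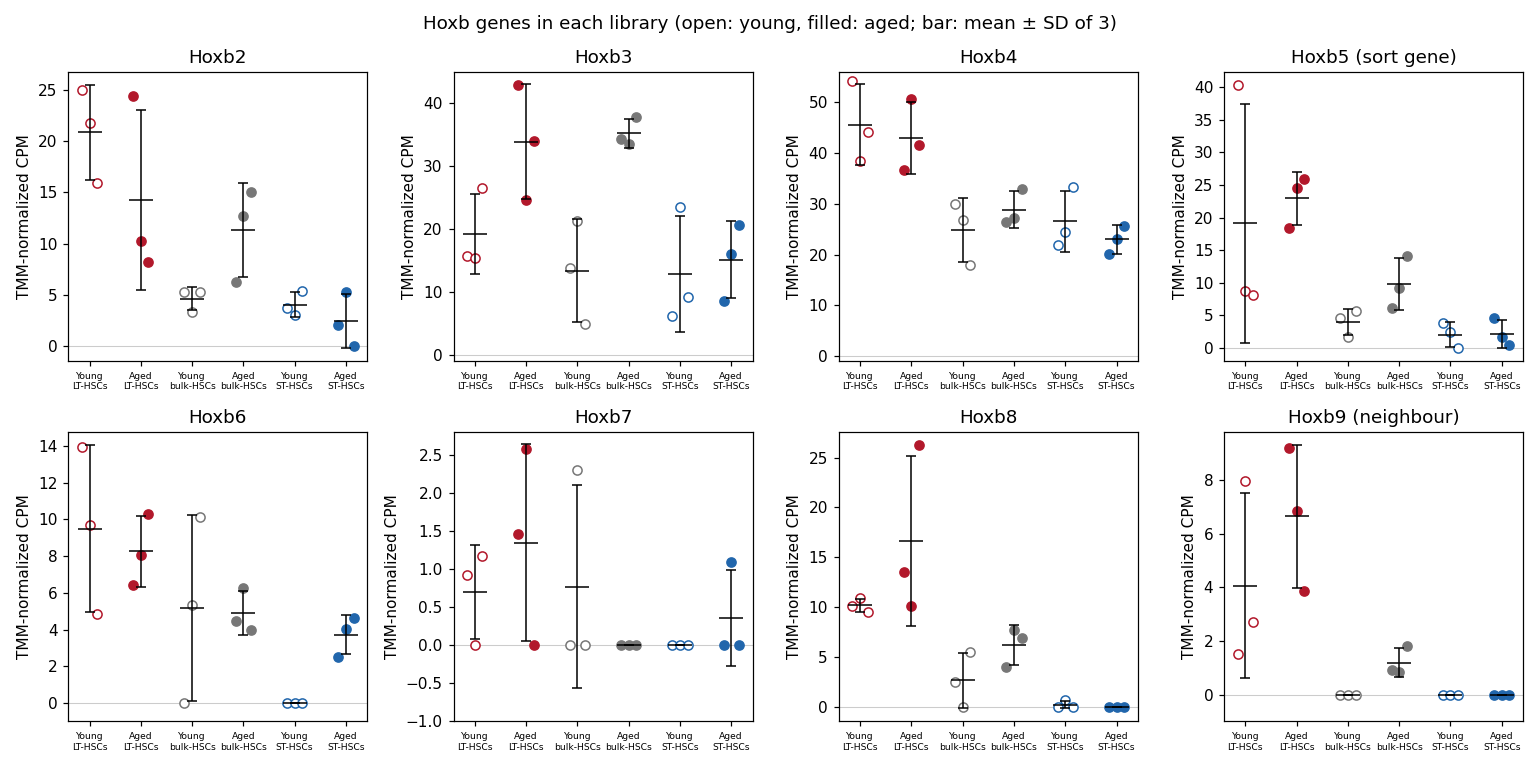
CPM of the 7 Hoxb genes and the neighbouring Hoxb9 in each of 18 libraries, by group (x axis); points are libraries, open for young and filled for aged, and bars are the mean ± SD of 3. The LT-HSC libraries of Hoxb8 sit between 9.55 and 26.2 CPM, and 5 of the 6 ST-HSC libraries sit at 0.

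Hoxb8 (chromosome 11, 96281905 to 96285315) had 10.1, 10.9 and 9.55 CPM in the 3 young LT-HSC libraries and 13.5, 10.1 and 26.2 CPM in the aged ones. In ST-HSCs it had 0, 0.63 and 0 CPM at the young age and 0 in all 3 aged libraries. The fractions did not overlap at either age, and the lowest LT-HSC library was over 10 times the highest ST-HSC library. In young mice the LT-HSC mean of 10.2 ± 0.67 CPM (SD, n = 3) was 48.1 times the ST-HSC mean of 0.21 ± 0.37 (SD, n = 3). In aged mice it was at least 118-fold higher, with the floor set at 3 counts per library (0.140 CPM), and 0.0859% of genes had counts in every aged LT-HSC and no aged ST-HSC library. The difference averaged over ages passed the edgeR test (adjusted p = 0.0104), and it passed without any 1 of the 12 libraries (adjusted p from 0.00585 to 0.0412) and in each of the 10 other alternatives that tested Hoxb8. Within one age the adjusted p was 0.222 in young and 0.268 in aged mice, where 0 of the 5 members were called higher (4 with unadjusted p under 0.05, DESeq2 calling Hoxb8 and limma-voom Hoxb4) beside 0.00781% of all genes.

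Hoxb6 (chromosome 11, 96292476 to 96301569) had 13.9, 9.70 and 4.86 CPM in young LT-HSCs and 0 in all 3 young ST-HSC libraries. In aged mice it had 6.44, 8.08 and 10.3 CPM in LT-HSCs and 2.53, 4.05 and 4.61 CPM in ST-HSCs. The fractions did not overlap at either age, but the gap was narrower in aged mice. The young LT-HSC mean of 9.50 ± 4.54 CPM (SD, n = 3) was at least 63.6-fold higher than young ST-HSCs, and the aged LT-HSC mean of 8.26 ± 1.93 (SD, n = 3) was 2.22 times the aged ST-HSC mean of 3.73 ± 1.08 (SD, n = 3). It was the only member called in young mice (1 of 5, edgeR adjusted p = 0.0309, beside 0.312% of all genes called higher), and over both ages its adjusted p was 0.0240. Counts in every young LT-HSC and no young ST-HSC library were found for 0.203% of genes. The averaged call was lost, at adjusted p from 0.0511 to 0.0810, without young ST-HSC replicate 1, aged LT-HSC replicate 1 or 3, or any aged ST-HSC library. The call in young mice was lost, at 0.0607 to 0.0774, without young LT-HSC replicate 1 or any young ST-HSC library. Young ST-HSC replicates 1 and 2, with 10 of the 9653 well-expressed genes at 0 each, held no Hoxb6 count either. Because well-expressed genes were also listed at 0 in some libraries, a 0 in these counts, which were made with StringTie, is not shown to be absence of RNA. Every at-least fold given here rests on a group listed at 0, holds only if those zeros are true counts, and covers counting error only. Epor, the erythropoietin receptor gene and 1 of 5 erythroid markers, was also listed at 0 in all 3 young ST-HSC libraries, with 2.83 ± 1.83 CPM in young LT-HSCs and 5.25 ± 3.87 CPM in aged ST-HSCs (SD, n = 3). It had the same 4 calls as Hoxb6, at edgeR adjusted p = 0.0220 between LT-HSCs and ST-HSCs averaged over ages, 0.0117 in young mice, 0.00434 with age in ST-HSCs and 0.00555 with age averaged. The 5 erythroid markers summed to 0.996 to 6.17 CPM in young LT-HSCs, 0 to 4.49 CPM in young ST-HSCs, 8.23 to 10.4 CPM in aged LT-HSCs and 2.96 to 13.7 CPM in aged ST-HSCs, and their part in the Hoxb6 result was not tested. Without both libraries that stood apart, the adjusted p in young mice was 0.0899.

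Hoxb4 (chromosome 11, 96318267 to 96321638) was the highest of the members in CPM per kb of exon in every group, and the libraries did not overlap with those of the next gene in any of the 6 groups. It had 54.1, 38.3 and 44.2 CPM in young LT-HSCs against 22.0, 24.4 and 33.4 CPM in young ST-HSCs. In aged mice it had 36.6, 50.6 and 41.5 CPM in LT-HSCs against 20.1, 23.1 and 25.7 CPM in ST-HSCs. All 6 LT-HSC libraries lay above all 6 ST-HSC libraries. The log2 fold change averaged over ages was 0.84 (SE 0.18, edgeR adjusted p = 0.0334). The adjusted p was over 0.05 without any 1 of 9 of the 12 libraries, from 0.0542 without aged LT-HSC replicate 1 to 0.101 without aged ST-HSC replicate 1, and it stayed below 0.05 without young LT-HSC replicate 2 or 3 or young ST-HSC replicate 3. Within an age the log2 fold change was 0.78 (SE 0.26, adjusted p = 0.238) in young and 0.90 (SE 0.26, adjusted p = 0.661) in aged mice.

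Hoxb2 (chromosome 11, 96350525 to 96354012), known for patterning the hindbrain, had 24.999, 21.7 and 15.9 CPM in young LT-HSCs and 3.68, 2.99 and 5.39 CPM in young ST-HSCs. In aged mice it had 24.4, 10.3 and 8.18 CPM in LT-HSCs and 2.08, 5.28 and 0 CPM in ST-HSCs. The fractions did not overlap at either age, with ratios of the means of 5.19 and 5.82, yet the test across genes did not call it (log2 fold change 2.46, SE 0.70, edgeR adjusted p = 0.143). DESeq2, which called 394 genes where edgeR called 104, called Hoxb2 as well.

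Hoxb3 (chromosome 11, 96323326 to 96347930) had 15.7, 15.4 and 26.5 CPM in young LT-HSCs and 6.19, 23.4 and 9.14 CPM in young ST-HSCs, which overlapped. In aged mice it had 42.9, 24.7 and 34.0 CPM in LT-HSCs and 8.58, 16.1 and 20.6 CPM in ST-HSCs, which did not, as 8.67% of all genes tested did not in that direction. Its log2 fold change averaged over ages was 0.87 (SE 0.36, edgeR adjusted p = 0.422).

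Hoxb7 (chromosome 11, 96286623 to 96290162), used as a marker of the ureteric bud in the kidney, had counts in 6 of the 18 libraries, at most 51 counts or 2.58 CPM, and was not tested. Those libraries were 2 of 3 in young LT-HSCs, 2 of 3 in aged LT-HSCs, 1 in young bulk-HSCs and 1 in aged ST-HSCs. A difference between fractions was not detectable at this depth (exact permutation test within ages, two-sided p = 0.11).

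Hoxb5 (chromosome 11, 96303336 to 96306121), the gene of the reporter, had 40.3, 8.77 and 8.20 CPM in young LT-HSCs and 3.83, 2.40 and 0 CPM in young ST-HSCs. In aged mice it had 18.4, 24.6 and 26.0 CPM in LT-HSCs and 4.56, 1.68 and 0.40 CPM in ST-HSCs. The libraries followed their labels at both ages, since all LT-HSC libraries lay above all ST-HSC libraries. The young LT-HSC libraries spread most, with replicate 1 at over 4 times the other two.

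Taken member by member, an exact two-sided permutation test of mean log2(CPM + 1), with libraries exchanged within each age, gave p = 0.005 for Hoxb2, Hoxb4, Hoxb6 and Hoxb8 between LT-HSCs and ST-HSCs, the smallest p that 400 arrangements allow. For Hoxb3 the same exact test gave p = 0.025. These p-values are not adjusted for the number of genes. Libraries that did not overlap at both ages, higher in LT-HSCs, were found for 1.55% of all genes tested.

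The size of the LT-HSC against ST-HSC difference did not follow the position in the cluster in a simple order, as the plot of differences along the cluster shows. The smallest differences of mean log2(CPM + 1) among members called or tested were at Hoxb3 (0.93 averaged over ages) and Hoxb4 (0.82), in the middle of the cluster, and larger ones lay on both sides, at Hoxb2 (2.25), Hoxb6 (2.13) and Hoxb8 (3.64). These sizes depended on the pseudocount. With 0.1 CPM added they were 2.98, 3.80 and 6.49, with Hoxb6 above Hoxb2, and with 5 CPM added 1.43, 1.04 and 1.79, while Hoxb3 (0.98 and 0.75) and Hoxb4 (0.84 and 0.73) stayed the smallest of the 5. The untested Hoxb7, which lies between Hoxb6 and Hoxb8, had a difference of 0.69, below Hoxb3 and Hoxb4. It had counts in only 6 of the 18 libraries, and its difference was 2.03 with 0.1 CPM and 0.21 with 5 CPM added. Hoxb9 (chromosome 11, 96271457 to 96276595), the next gene on the Hoxb8 side and no member, was also called between LT-HSCs and ST-HSCs. It had 1.52, 7.98 and 2.69 CPM in young LT-HSCs, 9.22, 6.87 and 3.88 CPM in aged LT-HSCs and 0 in all 6 ST-HSC libraries. It was at least 27.2-fold higher in young and at least 47.4-fold higher in aged LT-HSCs (edgeR adjusted p over both ages = 0.0163, lost without aged LT-HSC replicate 1 at 0.0533 or aged ST-HSC replicate 3 at 0.0510). Hoxb1 and Hoxb13, at the ends of the cluster, had no count in any library.

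**Figure D2:**
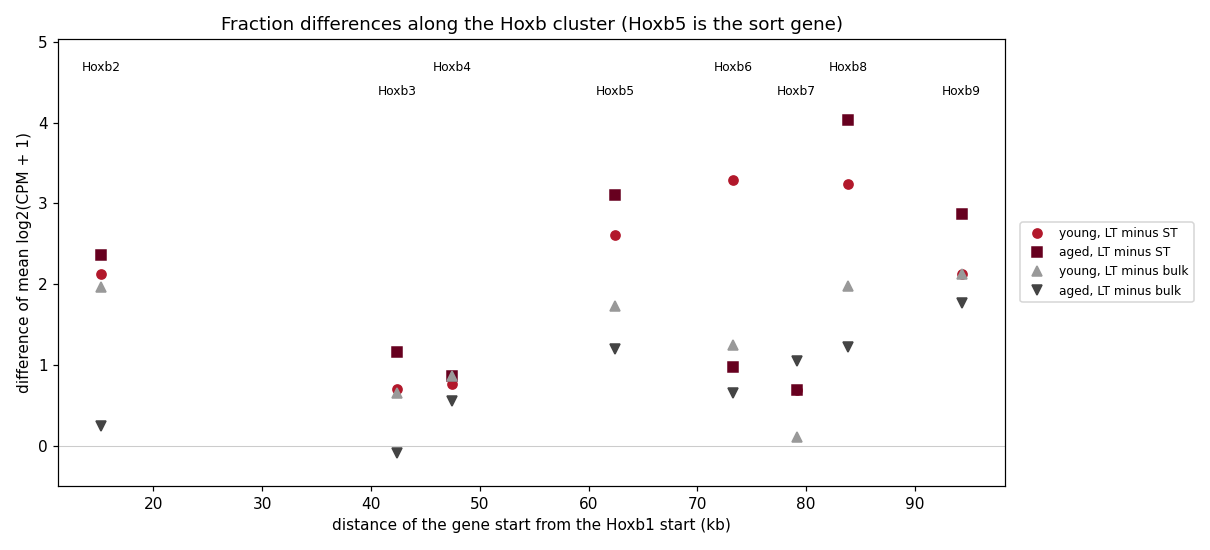
Difference of mean log2(CPM + 1) between LT-HSCs and ST-HSCs, and between LT-HSCs and bulk-HSCs, in young and aged mice (y axis) by the distance of each gene start from the Hoxb1 start (x axis, kb). Averaged over ages, which is not plotted, the LT-HSC minus ST-HSC difference of members other than the sort gene Hoxb5 is largest for Hoxb8, 3.64. This average is below 1 for Hoxb3, Hoxb4 and the untested Hoxb7, while the plotted value of Hoxb3 in aged mice is 1.16.

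The summed CPM of the 7 members in young mice was 125 ± 30.4 (SD, n = 3) for LT-HSCs against 45.8 ± 9.29 (SD, n = 3) for ST-HSCs. In aged mice the sums were 140 ± 8.24 (SD, n = 3) and 46.8 ± 7.76 (SD, n = 3). They include Hoxb5, whose reporter set the gates. Without it the sums were 106 ± 12.3 against 43.7 ± 10.5 CPM in young and 117 ± 9.87 against 44.6 ± 9.82 CPM in aged mice (SD, n = 3). Hoxb3 and Hoxb4 together made up 61.2% of the sum without Hoxb5 in young LT-HSCs and 90.04% in young ST-HSCs, and 65.7% and 85.4% in aged mice. The young ST-HSC libraries had counts for 3 to 5 of the 7 members, and the LT-HSC libraries for 6 or 7.

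Per kb of exon, Hoxb4 averaged 12.5 CPM per kb over the 18 libraries and Hoxb3 5.08, followed by Hoxb5, Hoxb2, Hoxb6, Hoxb8 and Hoxb7. Below Hoxb4, neighbours in this order overlapped in most groups. In aged bulk-HSCs Hoxb3, at 8.28 CPM per kb, stood apart from the next gene, and in both LT-HSC groups and in aged bulk-HSCs Hoxb7 stood apart below its neighbour in the order. The plot of levels per exon length shows these values.

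**Figure D3:**
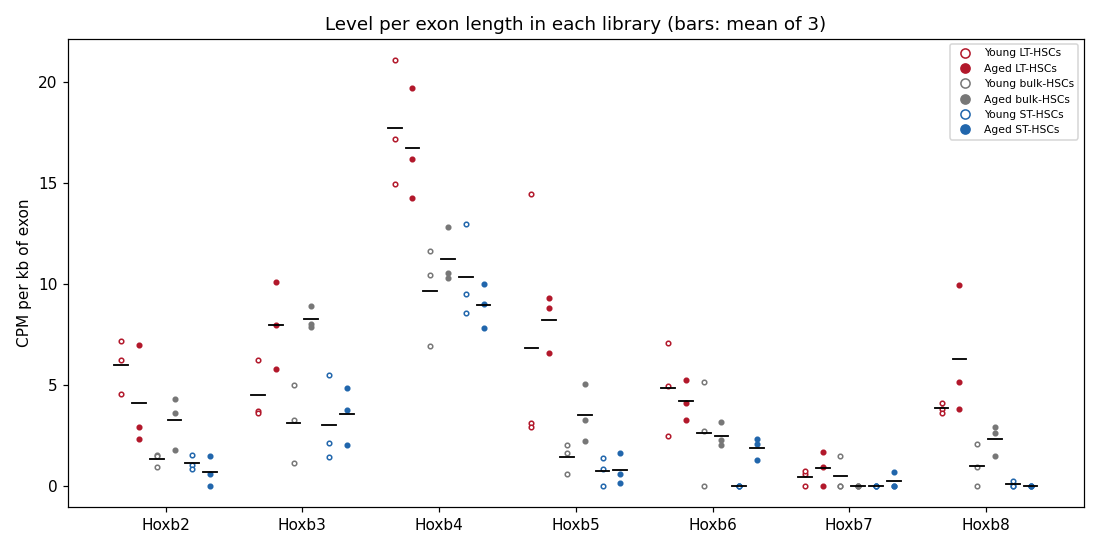
CPM per kb of exon (y axis) of the 7 Hoxb genes (x axis) in the 18 libraries; points are libraries by group, open for young and filled for aged, and bars are means of 3. Hoxb4 is highest in every group, with means from 8.96 to 17.8 CPM per kb.

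The mean of bulk-HSCs, which hold both fractions, lay between those of LT-HSCs and ST-HSCs at both ages for Hoxb2, Hoxb5, Hoxb6 and Hoxb8. For the other tested members it did not at 1 age, since Hoxb4 averaged 24.8 CPM in young bulk-HSCs and 26.6 CPM in young ST-HSCs, and Hoxb3 35.2 CPM in aged bulk-HSCs and 33.9 CPM in aged LT-HSCs, both pairs with overlapping libraries. In bulk samples a smaller share of LT-HSCs and less RNA per cell cannot be told apart. No member of 5 was called between LT-HSCs and bulk-HSCs averaged over ages by edgeR, beside 0.195% of all genes, where 1 had an unadjusted p under 0.05, and DESeq2 called 1 (Hoxb4) and limma-voom 0. Hoxb4 had 29.9, 26.8 and 17.8 CPM in young and 26.4, 27.1 and 33.0 CPM in aged bulk-HSCs, which lay below the LT-HSC libraries of the same age (log2 fold change 0.72, SE 0.18, edgeR adjusted p = 0.159). Hoxb8 had 2.52, 0 and 5.51 CPM in young and 3.96, 7.75 and 6.88 CPM in aged bulk-HSCs, again below every LT-HSC library of the same age (log2 fold change 1.67, SE 1.02, adjusted p = 0.702). Libraries without overlap at both ages, higher in LT-HSCs, were found for 0.89% of all genes tested. Hoxb2 (1.25, SE 0.67), Hoxb6 (0.81, SE 0.87) and Hoxb3 (0.23, SE 0.36) overlapped in at least 1 age. Hoxb9 had 0 in all 3 young bulk-HSC libraries and 0.93, 0.86 and 1.81 CPM in aged ones.

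Age moved fewer members. Hoxb6 was the only member called in ST-HSCs (1 of 6, edgeR adjusted p = 0.0351, beside 0.625% of all genes called higher) and the only one averaged over the 3 fractions (1 of 6, adjusted p = 0.0418, beside 4.34%). Its aged ST-HSC mean was at least 24.99-fold higher than that of young ST-HSCs, all at 0, a pattern of counts in every aged and no young ST-HSC library that 0.57% of genes showed. In LT-HSCs its aged and young libraries overlapped, at 8.26 and 9.50 CPM on average, and in bulk-HSCs they overlapped at 4.91 ± 1.21 and 5.16 ± 5.07 CPM (SD, n = 3), the young libraries being 0, 5.36 and 10.1. The call in ST-HSCs was lost without any 1 of the 6 ST-HSC libraries (adjusted p from 0.0637 to 0.0970), and the averaged call was lost without 16 of the 18 libraries, kept only without young bulk-HSC replicate 1 or 3 (range 0.00618 to 0.0716). The exact permutation test of the averaged age difference within fractions gave p = 0.0593 for Hoxb6 with a pseudocount of 1 CPM, 0.042 with 0.1 CPM and 0.2105 with 5 CPM. The numbers of genes at 0 among the well-expressed genes also moved with age, 1 to 163 in young and 2 to 6 in aged libraries, and when the count of detected genes entered the fit as a term the adjusted p was 0.0954 in ST-HSCs and 0.472 averaged.

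Hoxb3 was not called with age. It had 13.8, 21.3 and 4.95 CPM in young bulk-HSCs and 34.2, 33.5 and 37.8 CPM in aged bulk-HSCs, which did not overlap (log2 fold change 1.40, SE 0.52, edgeR adjusted p = 0.215). In LT-HSCs the log2 fold change was 0.82 (SE 0.51, adjusted p = 0.756), with overlapping libraries. Averaged over fractions it was 0.81 (SE 0.30, adjusted p = 0.121), and the exact permutation test within fractions gave p = 0.0125, unadjusted. DESeq2 called it, as did edgeR without young ST-HSC replicate 2 (adjusted p = 0.0290). Its reads share the region of Hoxb3os.

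Hoxb4 did not move with age beyond its error (log2 fold change averaged over fractions -0.03, SE 0.15, edgeR adjusted p = 0.962). In bulk-HSCs Hoxb2 had 5.32, 3.31 and 5.23 CPM in young and 6.21, 12.7 and 15.1 CPM in aged mice, without overlap (log2 fold change 1.29, SE 0.96, adjusted p = 0.674). Hoxb5 had 4.59, 1.72 and 5.61 CPM in young and 6.17, 9.17 and 14.1 CPM in aged bulk-HSCs, also without overlap (1.301, SE 1.06, adjusted p = 0.722), and Hoxb8 overlapped (1.21, SE 1.43, adjusted p = 0.860). Libraries that did not overlap, higher in aged bulk-HSCs, were found for 13.4% of all genes tested. Across the members, 5 of 6 had a higher value in aged than in young bulk-HSCs, 3 of 6 in LT-HSCs and 3 of 6 in ST-HSCs, with median log2 fold changes of 1.25, 0.09 and -0.06 against 0.03, 0.04 and 0.02 over all genes tested. The summed CPM of the members of young bulk-HSCs was 55.4 ± 5.80 (SD, n = 3), and that of aged bulk-HSCs was 96.3 ± 14.7 (SD, n = 3), without overlap. The authors reported that ST-HSCs fell relative to LT-HSCs within bulk-HSCs with age. A changed mix of cells and a change per cell therefore cannot be told apart in bulk-HSCs. No member was called in bulk-HSCs (1 of 6 with unadjusted p under 0.05; DESeq2 and limma-voom 0) beside 1.98% of all genes, nor in LT-HSCs (0 of 6 under 0.05; DESeq2 and limma-voom 0) beside 0.445%.

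**Figure D4:**
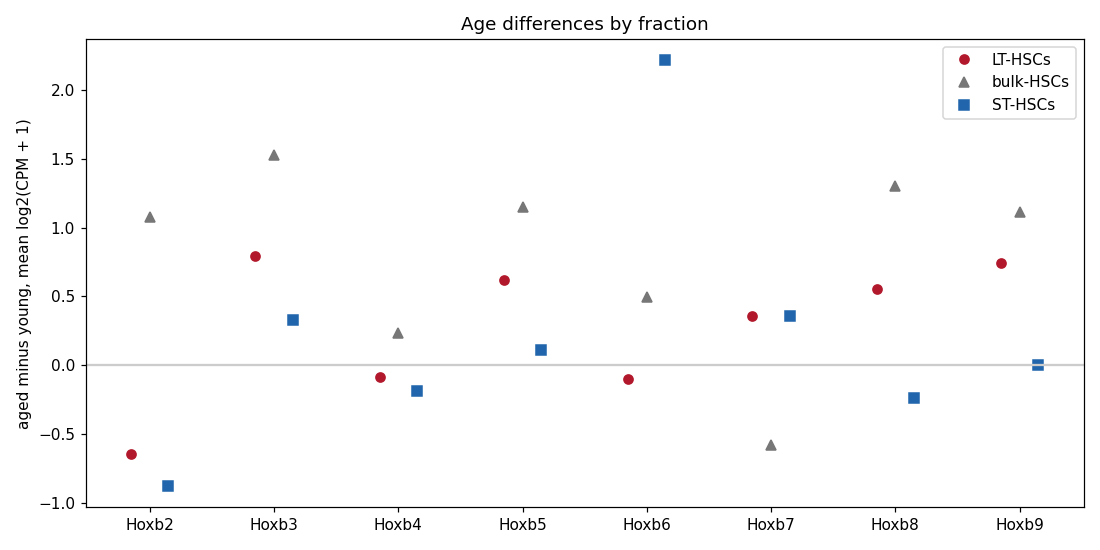
Aged minus young difference of mean log2(CPM + 1) (y axis) for each Hoxb gene (x axis), in LT-HSCs, bulk-HSCs and ST-HSCs. The point for Hoxb6 in ST-HSCs, where all 3 young libraries are at 0, is at 2.21 with the pseudocount of 1 CPM and would be 0.80 with 5 CPM, below Hoxb3 in bulk-HSCs at 1.24.

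Whether age changed a member differently in LT-HSCs than in ST-HSCs was tested as an interaction. No member of 6 was called by edgeR (0% of all genes were, with 502 genes at an unadjusted p under 0.05). Unadjusted p was below 0.05 for Hoxb6 (0.000703) and Hoxb8 (0.0340), with adjusted p = 0.855 and 0.9999, and DESeq2 called Hoxb6 while limma-voom called 0. Between LT-HSCs and bulk-HSCs 0 of 6 were called by edgeR, DESeq2 or limma-voom, and 0 had an unadjusted p under 0.05, beside 0.00781% of genes called.

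The promoters of Hoxb8 and Hoxb4, members called between LT-HSCs and ST-HSCs that the RefSeq promoter table holds (2 of 7 members matched), are printed over the 250 bases before the start, in capitals where a motif was found. Both are from GRCm38.p6 on the plus strand of chromosome 11, chr11:96281655-96281904 for Hoxb8 and chr11:96318017-96318266 for Hoxb4. The Hoxb8 window stands before the start given above, 96281905. The RefSeq span of Hoxb8 begins further upstream, at 96279401, so the window lies inside that span.
Hoxb8: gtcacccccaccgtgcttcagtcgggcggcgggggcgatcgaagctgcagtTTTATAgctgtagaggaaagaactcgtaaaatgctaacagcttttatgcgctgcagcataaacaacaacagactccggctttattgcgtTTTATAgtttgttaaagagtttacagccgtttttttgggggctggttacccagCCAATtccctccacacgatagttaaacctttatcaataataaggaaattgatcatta
Hoxb4: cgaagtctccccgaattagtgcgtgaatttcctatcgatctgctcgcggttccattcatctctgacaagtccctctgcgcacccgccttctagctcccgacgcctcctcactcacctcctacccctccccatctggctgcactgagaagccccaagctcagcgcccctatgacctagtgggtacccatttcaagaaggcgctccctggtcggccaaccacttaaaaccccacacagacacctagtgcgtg
Both strands were searched for the E-box CACGTG, the box CCAAT, the PBX-HOX site TGATTNAT, the homeodomain site TAATTA and the TATA box TATAAA. The Hoxb8 window held CCAAT 57 bases before the start and TATAAA on the minus strand at 110 and 199 bases before it, none of which overlap, while the Hoxb4 window held none of the 5 motifs. Among 32851 promoters of the same length CCAAT was in 33.8%, TATAAA in 12.4%, CACGTG in 6.02%, TAATTA in 4.84% and TGATTNAT in 2.82%. The Hoxb8 window had 12 CG dinucleotides and the Hoxb4 window 14, against a median of 6.

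The difference between LT-HSCs and ST-HSCs was set beside the rest of the Hox system. Of 11 flanking genes of the cluster that were tested, 0 were called (median log2 fold change 0.01). Of 9 genes of the other Hox clusters that were tested, 0 were called between LT-HSCs and ST-HSCs (median 0.07), and Hoxa9, long studied in HSCs and leukemia, had a log2 fold change of -0.21 (SE 0.17, edgeR adjusted p = 0.825). Like Hoxb6, Hoxc6 was at 0 in young ST-HSCs, with 6.35 ± 5.28 CPM in young LT-HSCs and 1.82 ± 2.58 CPM in aged ST-HSCs (SD, n = 3). Its aged LT-HSC mean was 1.79 ± 1.61 CPM (SD, n = 3). With age averaged over fractions it was called higher (4.80, SE 1.29, edgeR adjusted p = 0.0402), 1 of 9 beside 4.34% of all genes. Of 8 cofactors 0 were called between fractions, and those higher in aged mice averaged over fractions included Pbx3 (1.65, SE 0.27, adjusted p = 0.000855) and Meis3 (1.87, SE 0.52, adjusted p = 0.0391). Of 27 tested activators 1 was higher in LT-HSCs than in ST-HSCs, beside the 0.539% of all genes, the retinoic acid receptor gene Rarb (1.26, SE 0.28, adjusted p = 0.0376), and 5 moved with age averaged over fractions, beside 4.34% of all genes higher and 2.4% lower, of which Kmt2a, the gene of MLL, was lower (-0.36, SE 0.08, adjusted p = 0.00778), as were Nfya and Rbbp5, and Rarb and Rxra were higher. Of 20 Polycomb genes Ezh1, a histone H3 lysine methyltransferase gene, was higher in LT-HSCs than in ST-HSCs (0.62, SE 0.13, adjusted p = 0.0363). Cbx7 was higher in LT-HSCs than in bulk-HSCs (0.51, SE 0.10, adjusted p = 0.0327). Phc3 was higher with age averaged over fractions (0.79, SE 0.20, adjusted p = 0.0199). That is 1 of 20 for each comparison, beside 0.539% of all genes called higher, 0.195% called in either direction and 4.34% called higher. The count with age is near the share over all genes. These lists were not compared with the Hoxb genes by a test.

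The members varied together across the 18 libraries to different degrees, as a description over libraries that share their fractions and ages. The pair with the highest Pearson correlation of log2(CPM + 1) was Hoxb5 and Hoxb8 (r = 0.87, Spearman's rho 0.91). Hoxb3 and Hoxb6 had 0.33. Once each group mean was removed, correlations of member pairs ran from -0.41 to 0.36. Outside the cluster, among 10916 genes with at least 5 CPM on average, the genes closest by Pearson's r to the mean of the tested members were Ramp2 (r = 0.90), Ptpn14 (0.87), Jam2 (0.87), Fgd5 (0.86) and Vwf (0.85). That mean includes Hoxb5, whose reporter set the LT and ST gates. The sort therefore enters this ranking, and it enters every correlation with Hoxb5 itself. Fgd5, known as an HSC reporter gene, was closest to Hoxb2 (0.90) and to Hoxb4 (0.80). Its CPM ran from 197 to 235 in LT-HSC libraries and from 120 to 163 in ST-HSC libraries. By Pearson's r Hook1 was closest to Hoxb3 (0.82), the angiopoietin receptor gene Tek to Hoxb5 (0.86), Pdk4 to Hoxb6 (0.90) and Snn to Hoxb8 (0.86). By Spearman's rho other genes were closest, namely Gm9199 to Hoxb3 (0.83), Foxo1 to Hoxb5 (0.91), Ptpn14 to Hoxb6 (0.83) and Jam2 to Hoxb8 (0.89) and to the mean of the members (0.90), while Fgd5 was first for Hoxb2 and Hoxb4 by both.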

How the data were processed

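RNA from 18 libraries, 3 for each fraction at each age, was sequenced by the authors after ribosomal RNA depletion, aligned to mm10 with HISAT2 and quantified with StringTie (1.3.4d) and SAMtools (1.7). The deposited counts, whole numbers per gene, were used as the authors left them. The annotation and any use of strand in counting were not given in the sources used here. Groups came from the sample titles. Genes with a mean of at least 1 CPM (counts scaled by library size) after TMM scaling were tested with edgeR (4.0.16) in a single quasi-likelihood fit of 6 group means with 12 residual degrees of freedom, with Benjamini-Hochberg adjustment over all genes tested and a threshold of 0.05. Exact permutation tests used log2(CPM + 1), with pseudocounts of 0.1 and 5 CPM as alternatives, and exchanged libraries within age or fraction. A group at 0 was set to a floor of 3 counts per library. DESeq2 (1.42.0) and limma-voom (limma 3.58.1), other scalings and filters, a replicate block and leaving out libraries were alternatives. The members, gene lists and rules were chosen with earlier results of these data known. All members were named with their values in every library, listed genes where called or abundant, and the genes most like the members by Pearson's r. Coordinates and exon lengths came from GENCODE M21 (mm10), and promoters from RefSeq (GRCm38.p6). In these libraries 3 counts correspond to 0.132 to 0.176 CPM. Some sequences and genes are not reported here.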

Additional observations from a re-analysis of the deposited data

How the results depend on the processing

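Counts of members called changed with the setting as follows, and where no cause is named the cause was not tested. A filter of at least 10 counts in every library, which removes Hoxb2, Hoxb5, Hoxb6 and Hoxb8 from testing, left 1 member called between LT-HSCs and ST-HSCs averaged over ages, 0 in young mice, and 0 with age in ST-HSCs and averaged over fractions. DESeq2 gave 2 members in young LT-HSCs against ST-HSCs (Hoxb6 and Hoxb8), 1 in aged mice, 1 in young and 1 in averaged LT-HSCs against bulk-HSCs, 2 with age averaged (Hoxb3 and Hoxb6) and 1 for the interaction of age with LT-HSCs and ST-HSCs. Limma-voom gave 0 in young and 1 in aged LT-HSCs against ST-HSCs, and 0 for both age calls. Fitting only the groups compared gave 0 in young, 1 in aged mice and 0 with age in ST-HSCs. Chosen after seeing the data, leaving out the 2 libraries with most genes at 0 gave 0 in young LT-HSCs against ST-HSCs and 0 for both age calls, and adding how many genes were detected to the fit gave 0 for both age calls. Leaving out 1 library gave 1 to 3 members between LT-HSCs and ST-HSCs averaged over ages, 0 to 1 in young mice, 0 to 1 with age averaged and 0 to 0 with age in ST-HSCs. Over the other edgeR, DESeq2 and limma-voom alternatives, the averaged adjusted p of this difference reached 0.128 for Hoxb6 (10 alternatives). For Hoxb4 it reached 0.0585 (11 alternatives), so neither call between LT-HSCs and ST-HSCs was made in every alternative.

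The log2 fold change of Hoxb4 with age averaged over fractions, -0.03, was 0.0369 with limma-voom, 0.0319 without the 2 libraries with most genes at 0, 0.142 with the genes detected in the fit and -0.0899 to 0.0387 when 1 library was left out. With the genes detected in the fit those of Hoxb5 with age were -0.875 averaged and -0.655 in bulk-HSCs.

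The replicate numbers were not taken to pair the samples, since the labels do not say what a number marks. Deviations of same-numbered libraries correlated at -0.04 to 0.12 over 18 pairs. Between LT-HSCs and ST-HSCs the 6 same-numbered pairs correlated at 0.02 to 0.12 (median 0.07) and the 12 others at -0.11 to 0.03 (median -0.04). Young LT-HSC and ST-HSC replicates 3 also shared the most genes at 0. A pairing of these fractions is therefore not excluded, and neither the main fit nor the permutation tests model it. With a replicate block 2 members (Hoxb6 and Hoxb8, not Hoxb4) were called between LT-HSCs and ST-HSCs averaged over ages, 0 in young mice, and 0 with age in ST-HSCs and averaged, so that the other 3 calls of Hoxb6 were not made, and the block changed no other count of members called.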
